A study of Mus musculus with 32 samples.

Results

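Female Alport mice that had received nicotinamide riboside (NR), a dietary precursor of NAD+, were compared with untreated female controls to find which kidney cortex genes remained away from the healthy level after treatment and which went past it. The 8 mice were chosen by their labels from the 32 mice of the study, 4 NR-treated Alport females and 4 control females on the vehicle diet, and each gave 1 RNA-Seq library. Alport mice were *Col4a3*-/- and controls were *Col4a3*+/-, all of strain C57BL/6J-Col4a3tm1Dec and 25 weeks of age, so the controls also carried a null allele and are not wild-type. Per the study's methods, NR made up 0.5% of the diet by weight from 10 weeks of age, and vehicle-treated mice ate the same purified diet without it. Genotype and diet both differ between these groups, so their parts cannot be told apart in this comparison. For that reason the values in vehicle-treated Alport females or NR-treated control females (4 mice each) are set beside many of the results, though not all. Those comparisons use some of the same mice, so they are not independent of this one.

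Type IV collagen of the glomerular basement membrane is built from chains encoded by *Col4a3*, *Col4a4* and *Col4a5*, and loss of any of them leaves a leaky filter, followed by injury of the tubules, inflammation and scarring. The proximal tubule, which takes back most of the filtered solutes, draws much of its energy from fatty acids, and NAD+ is the electron carrier of that oxidation. PPARα is a nuclear receptor for fatty acids that switches on fatty acid oxidation genes, NRF2 is a transcription factor that switches on antioxidant and detoxification genes, and SREBP2 switches on cholesterol synthesis and uptake.

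The 8 libraries held 19916664–27778797 counts, and no pair of them within a group agreed within sampling noise. Levels are given as CPM, read counts relative to the library total, scaled with trimmed mean of M values (TMM) factors over all 32 mice, and mice are numbered by their replicate labels. *Col4a3* was at 48.8, 50.8, 57.6 and 59.3 CPM in NR-treated Alport mice 1 to 4 and at 160, 140, 140 and 163 CPM in control mice 1 to 4. All Alport mice lay below all controls, with a log2 fold change (log2FC) of -1.47 ± 0.09 (SE, n = 4 a group, adjusted p = 5.79e-05), although counts over the whole gene cannot show the disrupted part of the allele. Unless stated otherwise, adjusted p is the Benjamini-Hochberg value of edgeR's quasi-likelihood test over all genes tested, with 0.05 as the threshold. Markers of kidney cortex were abundant in both groups, among them *Umod* of the thick ascending limb (3392 ± 316 and 3524 ± 377 CPM, mean ± SD, n = 4) and *Aqp2* of the collecting duct (290 ± 66.2 and 278 ± 66.4 CPM). *Cyp11b2* of the adrenal cortex was at 0 in all 8 mice, and *Upk2* of the urothelium was at most 0.11 CPM. Other genes of these tissues were detected at low levels. The 7 adrenal cortex genes summed to 3.96–6.93 CPM in NR-treated Alport mice and 5.18–6.67 CPM in controls. The 5 urothelium genes summed to at most 1.61 CPM in any of the 8 mice. No gene of either list was called. The 8 adipocyte genes summed to 25.3–33.4 CPM in NR-treated Alport mice and 10.2–18.7 CPM in controls, of which *Fabp4*, also made by endothelial cells, gave most and *Adipoq* at most 0.15 CPM. The 5 red blood cell genes, of which none was called, summed to 425–1275 CPM and 322–664 CPM.

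Kidneys of NR-treated Alport females still differed widely from those of untreated controls. Of 15381 genes tested, 3535 were called (23.0%), 1776 of them higher (11.5%) and 1759 lower (11.4%). At least a 2-fold difference was called for 1116 genes (7.26%), 844 higher (5.49%) and 272 lower (1.77%). Counts of called list members given below stand against these shares of all genes. CPM ranges of the 4 and 4 mice did not overlap for 26.3% of genes, with 11.7% of genes above and 14.6% below the controls. Vehicle-treated Alport females against the same controls had 7179 of 15709 genes called (45.7%), and NR-treated against vehicle-treated Alport females 72 of 15712 (0.458%). Most genes called here differed in the same direction in vehicle-treated Alport females, 1582 higher and 1484 lower, and are described as still abnormal. Another 23 genes had crossed the healthy level, 21 that were low in vehicle-treated Alport mice and high here and 2 the other way round. The remaining called genes, 173 higher and 273 lower, were not called in vehicle-treated Alport mice. The calls depended on single mice of either group. Without control mouse 1 or 2, 2227 and 2245 genes were called, of which 1951 and 1979 were still abnormal. Without NR-treated Alport mouse 1 or 2 the numbers called were 2572 and 2630. The number that had crossed was 12, 14, 15 and 13 without control mice 1 to 4, respectively.

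**Figure D1:**
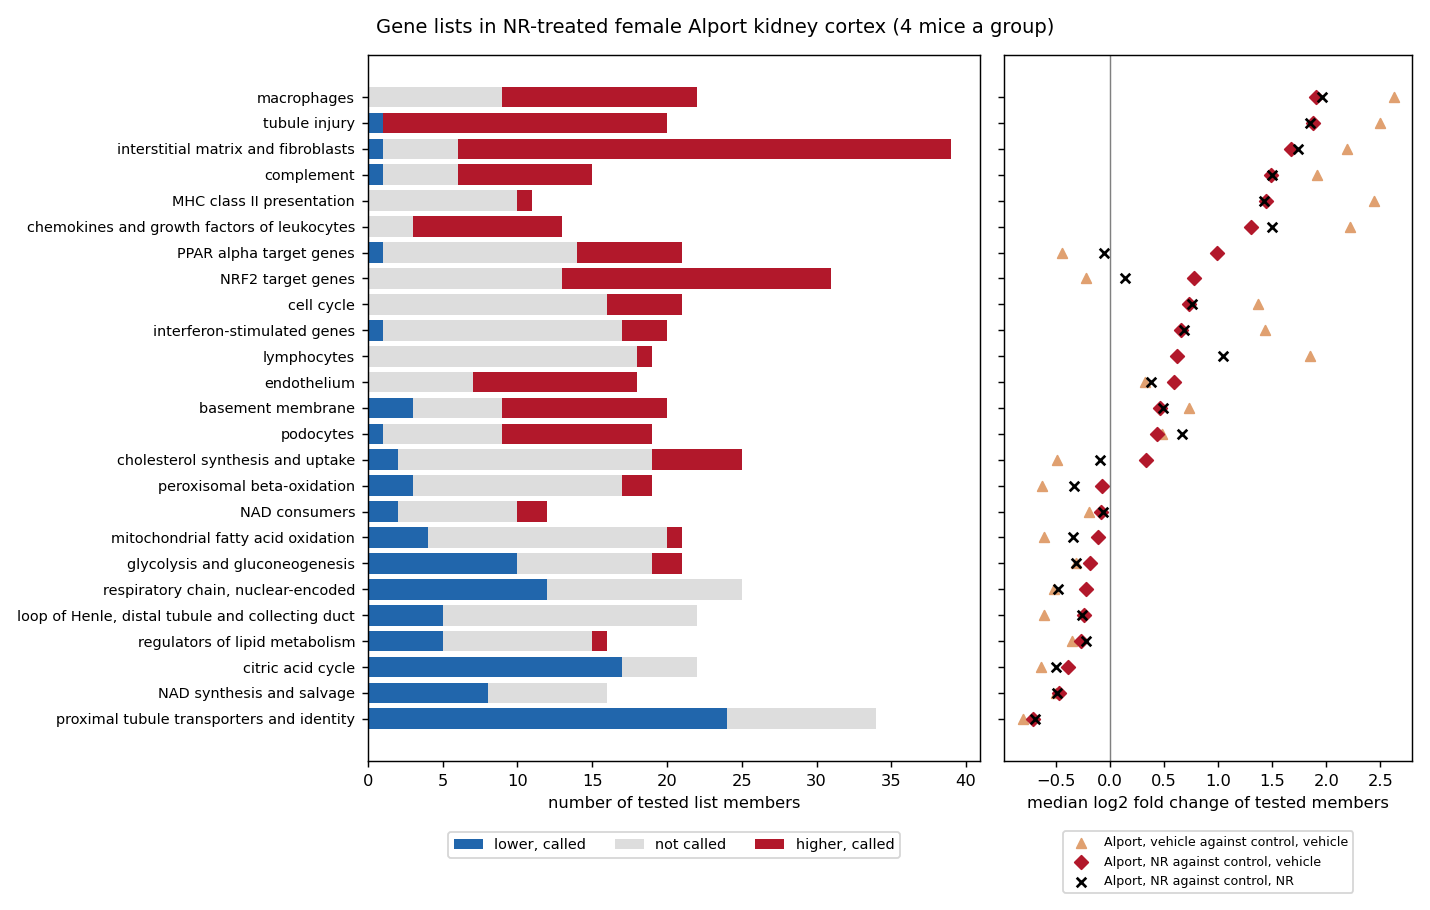
Left, for each gene list (rows), the number of tested members called lower, not called and called higher in NR-treated Alport against vehicle-treated control females. Right, the median log2FC of the list in that comparison (diamonds), in vehicle-treated Alport against the same controls (triangles) and in NR-treated Alport against NR-treated control females (crosses), 4 mice a group. The lists of PPARα targets, NRF2 targets and cholesterol genes lie above 0 only for the diamonds and, for NRF2 targets, the crosses (0.14), whereas the injury, matrix and immune lists lie above 0 in each comparison.

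The 4 NR-treated Alport mice were not alike. The score of a list, the mean log2(CPM + 1) over its tested members, was 4.97, 4.63, 3.82 and 3.04 for macrophage genes in NR-treated Alport mice 1 to 4 and 2.48, 2.50, 3.28 and 2.85 in the controls. Mice 1 and 2 thus lay within the range of vehicle-treated Alport mice (4.36–5.09), and mouse 4 lay within that of the controls. For genes of the interstitial matrix the scores were 5.83, 5.76, 4.89 and 4.52, against 3.51–4.10 in controls, so that mice 3 and 4 were lower than mice 1 and 2 and still above every control. Mouse 4 had at the same time the highest scores of PPARα targets (7.05, with 5.92–6.22 in mice 1 to 3 and 5.24–5.71 in controls) and of NRF2 targets (7.41, with 6.61–6.98 in mice 1 to 3 and 6.00–6.26 in controls). Control mouse 3 had the highest macrophage score of the controls. Without NR-treated Alport mouse 4, 4788 genes were called.

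**Figure D2:**
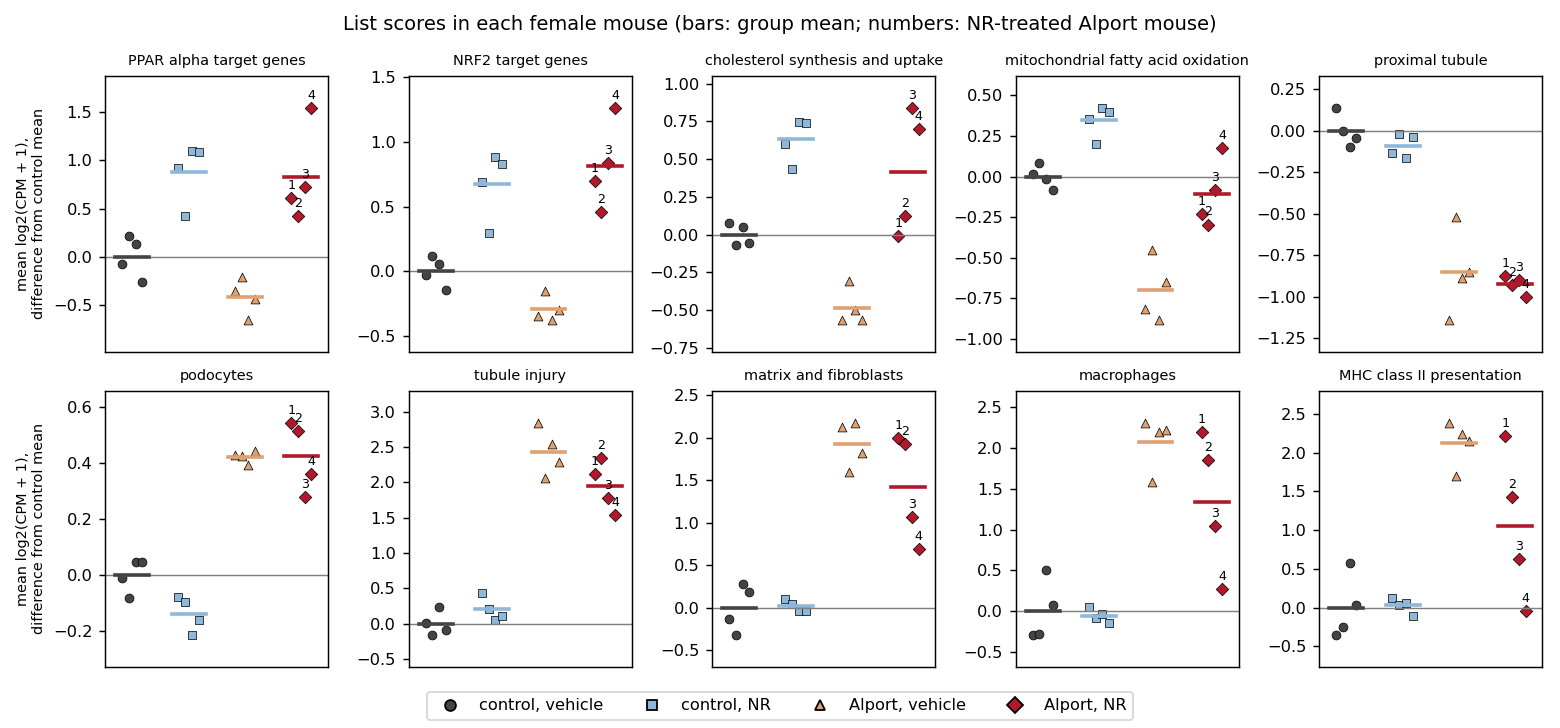
Score of 10 gene lists in each female mouse, as the difference from the mean of the 4 vehicle-treated controls on the log2(CPM + 1) scale, with bars at the group means and numbers for the NR-treated Alport mice. For macrophage and MHC class II genes mice 1 and 2 lie near the vehicle-treated Alport mice and mouse 4 near the controls, whereas for proximal tubule genes the 4 mice lie close together and below every control.

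Genes of the proximal tubule stayed low. Of 34 tested transporter and identity genes 24 were lower and 0 higher, with a median log2FC of -0.71, while the median of all genes tested was -0.02 and 11.4% of all genes were called lower. *Lrp2*, which encodes megalin, the receptor that takes up filtered protein, was at 970, 990, 1348 and 1043 CPM in NR-treated Alport mice and at 2980, 2480, 3008 and 2597 CPM in controls. The highest Alport value was less than the lowest control value, and the log2FC was -1.34 ± 0.13 (adjusted p = 0.000213). Its partner *Cubn*, for cubilin, gave -1.31 ± 0.10 (0.000106), and the amino acid transporter subunit *Slc3a1* -0.98 ± 0.10 (0.00026). The phosphate transporter *Slc34a1* was at 2826, 3027, 3707 and 3159 CPM against 6358, 5558, 5057 and 5966 CPM, again without overlap (-0.84 ± 0.12, adjusted p = 0.00106). In vehicle-treated Alport mice the log2FC was -1.09 for *Lrp2* and -0.87 for *Slc34a1*, and between NR-treated and vehicle-treated Alport mice neither was called (-0.21, adjusted p = 0.604, and 0.07, 0.863). Since RNA was taken from whole cortex, fewer tubule cells and less RNA per tubule cell cannot be told apart.

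Further along the nephron, 5 of 22 genes were lower and 0 higher (median -0.24). The share called was close to the 23.0% of all genes called, of which 11.4% of all genes were lower. *Egf*, the growth factor of the thick ascending limb and distal tubule, was at 776, 754, 932 and 1104 CPM against 2732, 2059, 2453 and 2591 CPM (log2FC -1.46 ± 0.14, adjusted p = 0.000237). *Pvalb*, a calcium-binding protein of the distal tubule, gave -1.28 ± 0.18 (0.00128), and *Slc26a4*, the chloride-bicarbonate exchanger pendrin of intercalated cells, -1.0 ± 0.09 (0.000191). The ranges of the 3 genes did not overlap. Without NR-treated Alport mouse 4, 9 genes of this list were called. In vehicle-treated Alport mice 15 were lower and 0 higher (median -0.61), where 45.7% of all genes were called. *Umod*, of the same segment as *Egf*, was not called (-0.05, 95% CI -0.30 to 0.20).

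Of 16 tested genes of NAD+ synthesis and salvage 8 were lower, 0 higher and 8 not called (median -0.47). In vehicle-treated Alport mice 11 were lower and 0 higher (median -0.50). The 3 with the smallest p belong to the route from tryptophan, of which not every tested gene was lower. *Kmo*, kynurenine monooxygenase, was at 78.9, 77.1, 90.7 and 90.3 CPM against 168, 178, 174 and 183 CPM (log2FC -1.06 ± 0.08, adjusted p = 9.38e-05). *Afmid*, which acts just before it in the pathway, gave -1.16 ± 0.16 (0.00133) and *Kynu*, kynureninase, -0.98 ± 0.15 (0.00168). For each of the 3 genes the Alport mice lay below every control. *Nampt*, the rate-limiting enzyme of NAD+ salvage from nicotinamide, was at 138, 122, 188 and 235 CPM against 242, 242, 242 and 230 CPM, so that mouse 4 alone lay within the control range. It was not called (-0.48, 95% CI -0.88 to -0.08, adjusted p = 0.0839), and without mouse 4 it was (-0.65, adjusted p = 0.00514). Of 12 tested genes of enzymes that use NAD+, 2 were higher, 2 lower and 8 not called (median -0.08). Among them, the mitochondrial deacetylase *Sirt3* was lower (-0.66 ± 0.09, adjusted p = 0.00074) and *Cd38*, an NAD+ glycohydrolase, was higher (0.92 ± 0.16, 0.00265).

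The citric acid cycle was low as a whole, with 17 of 22 genes lower, none higher and every tested member below 0 (log2FC -0.66 to -0.13, median -0.38). *Sucla2*, a subunit of succinyl-CoA synthetase, was at 138, 132, 146 and 119 CPM against 233, 211, 190 and 215 CPM (-0.66 ± 0.09, adjusted p = 0.00101). *Idh3b*, of the NAD+-dependent isocitrate dehydrogenase, was at 224–230 CPM against 292–336 CPM (-0.47 ± 0.07, adjusted p = 0.00168). Of 25 nuclear-encoded genes of the respiratory chain 12 were lower and 0 higher (median -0.22), with *Ndufs1* of complex I at -0.52 ± 0.09 (0.00314) and *Uqcrc2* of the cytochrome c reductase complex at -0.44 ± 0.09 (0.00575). This count was 5 without NR-treated Alport mouse 1 or 2 or control mouse 1, and 6 without control mouse 2 or 4. In vehicle-treated Alport mice the medians were -0.63 and -0.52, with 22 and 23 genes lower.

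Of 21 genes of glycolysis and gluconeogenesis, the latter a further task of the proximal tubule, 10 were lower, 2 higher and 9 not called (median -0.18). *G6pc*, the glucose-releasing phosphatase, was at 305, 358, 458 and 323 CPM against 793, 738, 664 and 629 CPM (log2FC -0.96 ± 0.13, adjusted p = 0.00106), and *Fbp1*, fructose bisphosphatase, gave -0.83 ± 0.15 (0.00369). Both were without overlap. The total of 12 called was 7 without NR-treated Alport mouse 1 or control mouse 1 or 4 and 6 without control mouse 2.

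Regulators of lipid metabolism were lower where they were called, with 1 exception. *Ppara*, the gene of PPARα itself, was at 43.1, 37.9, 49.2 and 84.6 CPM in NR-treated Alport mice and at 107, 120, 100 and 115 CPM in controls. Mouse 4 was again the highest, but below every control (log2FC -1.03 ± 0.23, adjusted p = 0.0126). *Esrra*, a nuclear receptor for mitochondrial genes, gave -0.59 ± 0.11 (0.0044), and *Tfam*, which maintains mitochondrial DNA, -0.40 ± 0.08 (0.00788). The coactivator *Ppargc1a* gave -0.42 ± 0.13 (0.0342), a call that was lost without NR-treated Alport mouse 1 (adjusted p = 0.111) or 2 (0.113) and without control mouse 1 (0.095), 2 (0.072) or 3 (0.0828). Of 16 regulators 5 were lower and 1 higher, and 3 in all were called without control mouse 1 or 2. In NR-treated against vehicle-treated controls *Ppara* was also lower (-0.45, adjusted p = 0.00792).

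Tubule injury genes stayed high. Of 20 injury genes 19 were higher and 1, *Prom1*, lower (median log2FC 1.88, with 11.5% of all genes called higher), and the ranges did not overlap for 16 of those higher. *Lcn2*, a secreted marker of tubule damage, was at 50.2, 66.7, 30.1 and 46.4 CPM in NR-treated Alport mice and at 2.23, 0.751, 5.37 and 1.74 CPM in controls (4.26 ± 0.53, adjusted p = 0.00152). *Havcr1*, which encodes kidney injury molecule KIM-1, was at 51.7, 113, 52.1 and 3.97 CPM against 1.89, 0.939, 4.20 and 0.960 CPM. Mice 1 to 3 were far above the controls and mouse 4 was below control mouse 3 (4.78 ± 1.01, adjusted p = 0.014, and 0.131 with limma-voom). *Krt20*, a keratin of injured tubule cells, was at 5.84–19.3 CPM against 0.375–0.902 CPM (4.60 ± 0.43, adjusted p = 0.000299). The fibrinogen chain *Fgb* was the gene with the smallest p in the comparison, at 29.3, 54.8, 44.7 and 35.7 CPM against 4.03, 4.51, 3.80 and 3.61 CPM (3.37 ± 0.20, adjusted p = 5.41e-05). Against vehicle-treated Alport mice none of *Lcn2*, *Havcr1*, *Krt20* and *Fgb* was called (log2FC -0.91, -0.92, -0.94 and 0.86, adjusted p = 0.189, 0.553, 0.248 and 0.102). Early response genes, which also rise with tissue handling, were higher for 6 of 10 members, with *Atf3* at 2.49 ± 0.34 (0.00101) and *Junb* at 1.59 ± 0.17 (0.00041). Their part in the other results was not tested.

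**Figure D3:**
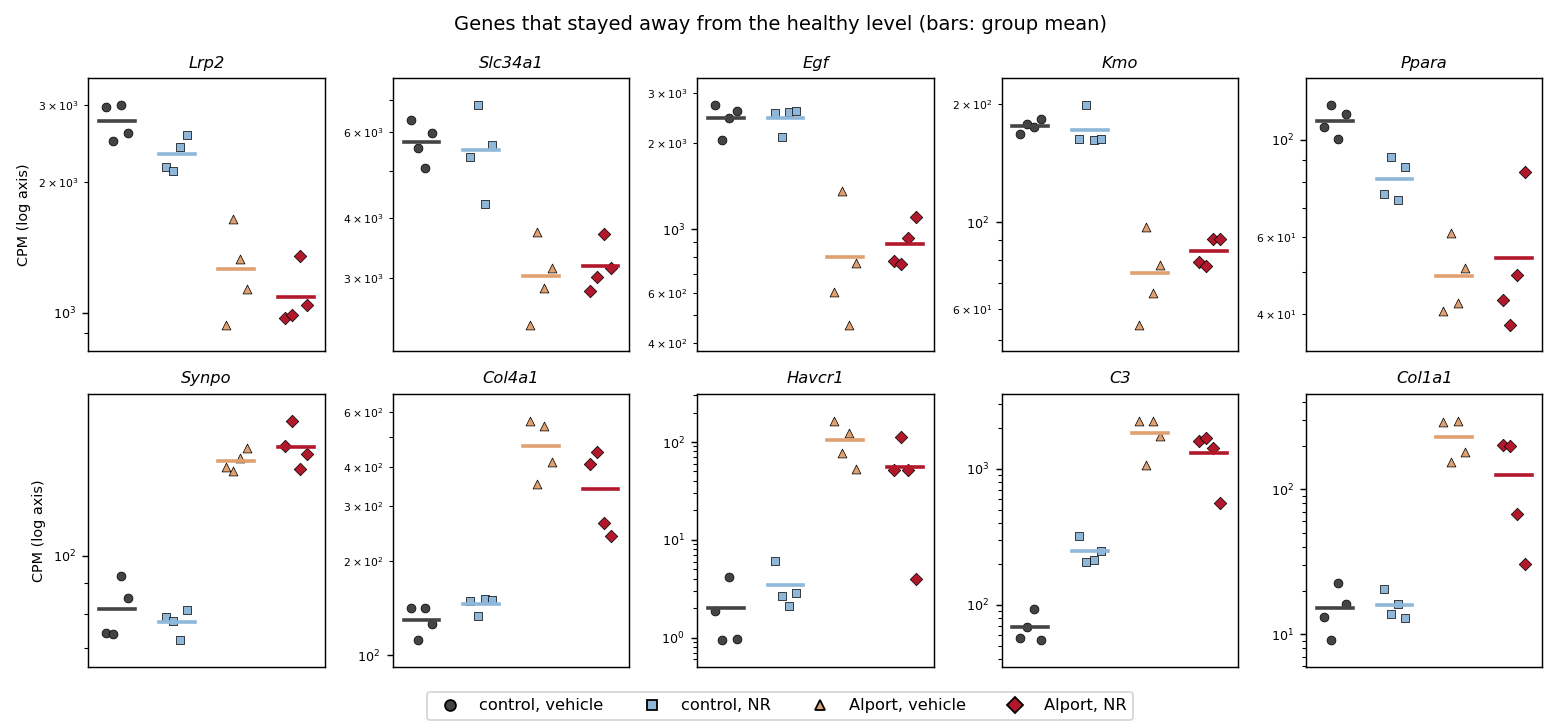
CPM (log axis) of 10 genes in each mouse of the 4 female groups, with bars at the group means. NR-treated Alport mice lie below the vehicle-treated controls for *Lrp2*, *Slc34a1*, *Egf*, *Kmo* and *Ppara* and above them for *Synpo*, *Col4a1*, *C3* and *Col1a1*, and for *Havcr1* 1 of the 4 mice (3.97 CPM) falls within the control range.

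Matrix genes stayed high in nearly every case. Of 39 genes of the interstitial matrix and its fibroblasts 33 were higher and 1, *Col5a2*, lower (median 1.68). *Col1a1*, the main chain of scar collagen, was at 204, 200, 67.2 and 30.5 CPM against 13.1, 9.05, 22.5 and 16.1 CPM, so that every Alport mouse exceeded every control, mouse 4 by the least (3.05 ± 0.65, adjusted p = 0.0145). *Timp1*, an inhibitor of matrix proteases, gave 4.58 ± 0.87 (0.00822, and 0.0536 with limma-voom). Smaller but more even differences were those of *Col12a1* (1.39 ± 0.17, 0.000578), *Cyr61* (1.28 ± 0.16, 0.000649) and the proteoglycan *Dcn* (1.64 ± 0.22, 0.00112). *Col5a2* (-0.57, 0.0182) was not called without control mouse 1 (0.0555) or 4 (0.0539). In vehicle-treated Alport mice the median of the list was 2.19, with 37 genes higher.

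Basement membrane genes split by chain. *Col4a1* and *Col4a2*, the chains of the collagen network outside the mature glomerular filter, were higher, *Col4a1* at 410, 445, 264 and 241 CPM against 141, 112, 142 and 126 CPM (log2FC 1.39 ± 0.20, adjusted p = 0.00168) and *Col4a2* at 207–304 CPM against 83.9–113 CPM (1.38 ± 0.14, 0.00031). *Col4a4*, a partner of *Col4a3*, was lower at 156, 143, 149 and 198 CPM against 216, 204, 222 and 227 CPM (-0.42 ± 0.11, adjusted p = 0.0174), a call lost without NR-treated Alport mouse 1 (adjusted p = 0.0607) or 2 (0.0651). *Col4a5*, the third partner, was at 35.7–50.4 CPM against 38.3–43.1 CPM and was not called (0.05, 95% CI -0.18 to 0.28). Of 20 basement membrane genes 11 were higher and 3 lower, and without NR-treated Alport mouse 2 the total called was 9.

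Most tested podocyte and endothelial genes were higher than in controls. Of 19 podocyte genes 10 were higher and 1, *Vegfa*, lower (median 0.44), and of 18 endothelial genes 11 were higher and 0 lower (median 0.59). *Synpo*, a cytoskeletal protein of podocyte foot processes, was at 153, 168, 140 and 148 CPM against 74.2, 74.0, 92.5 and 85.0 CPM (0.91 ± 0.10, adjusted p = 0.00031). *Nphs1*, which encodes nephrin of the slit diaphragm, was at 71.3–89.5 CPM against 55.2–62.5 CPM (0.48 ± 0.09, 0.0039). In every NR-treated Alport mouse both genes were above every control. The call of *Vegfa* (-0.42, adjusted p = 0.0386) was lost without any of NR-treated Alport mice 1 to 3 or any 1 control mouse (adjusted p = 0.0515 to 0.101). Of the endothelial genes, the junction protein *Cdh5* was at 47.1, 53.5, 50.6 and 48.9 CPM against 29.8, 26.1, 30.4 and 27.7 CPM (0.82 ± 0.08, 0.000258), and the nitric oxide synthase *Nos3* gave 0.72 ± 0.10 (0.000987). Between NR-treated and vehicle-treated Alport mice none of *Synpo*, *Nphs1*, *Cdh5* and *Nos3* was called (log2FC 0.09, 0.08, 0.14 and 0.21). In vehicle-treated Alport mice 12 podocyte genes were higher and 1 lower (median 0.48), and 10 endothelial genes were higher and 0 lower (median 0.33). As CPM are shares of whole-cortex RNA, a changed share of these cells and changed RNA per cell cannot be told apart.

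Among immune genes most chemokines, complement components and macrophage genes were called higher, and presentation and lymphocyte genes were mostly not called. Of 13 tested chemokines and leukocyte growth factors 10 were higher, of 15 complement genes 9 were higher and 1, *Cfb*, lower, and of 22 macrophage genes 13 were higher. *C3*, the central complement component, was at 1594, 1682, 1435 and 558 CPM against 57.4, 68.8, 93.7 and 54.7 CPM (log2FC 4.27 ± 0.38, adjusted p = 0.000352). It was also higher in NR-treated than in vehicle-treated controls (1.84, adjusted p = 0.00876), with 206–323 CPM. *Cxcl1*, which draws neutrophils, gave 4.00 ± 0.56 (0.00134), and *Il34*, a growth factor for macrophages, 1.96 ± 0.23 (0.000578). *Cfb*, complement factor B (-0.39, 0.0137), was not called without control mouse 2 (0.0504). *Mrc1*, a scavenger receptor of macrophages, was at 24.4, 13.5, 11.5 and 8.05 CPM against 2.36, 2.44, 5.29 and 4.53 CPM (1.98 ± 0.39, 0.00748). *Adgre1*, which encodes F4/80, was at 26.0, 21.4, 9.99 and 3.93 CPM against 3.26, 3.0, 8.0 and 5.08 CPM. It was above the control range in mice 1 to 3 and within it in mouse 4, and was not called (1.67, 95% CI 0.32 to 3.02, adjusted p = 0.0771), but was without mouse 4 (2.01, 0.0126). The macrophage count was 20 without NR-treated Alport mouse 4, 6 without mouse 2, 6 without control mouse 1 or 2 and 7 without control mouse 4.

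Of 11 MHC class II genes 1, *Ctss* (cathepsin S), was called, although every one was above 0 (log2FC 0.68 to 2.53, median 1.45), and the count was 9 without NR-treated Alport mouse 4, 2 without mouse 3 or control mouse 3, and 0 without mouse 2 or control mouse 1, 2 or 4. The call of *Ctss* was thus lost, with adjusted p = 0.0767 without NR-treated Alport mouse 2 and 0.0712 to 0.0849 without control mouse 1, 2 or 4. *H2-DMa*, a chaperone of peptide loading, was at 32.4, 21.0, 12.4 and 6.10 CPM against 5.70, 5.78, 10.4 and 6.81 CPM (1.33, 95% CI 0.24 to 2.42, adjusted p = 0.0792, and 0.011 without NR-treated Alport mouse 4). Of 19 lymphocyte genes 1, *Il7r*, was called, at 5.04, 2.85, 1.05 and 1.24 CPM against 0.386, 0.375, 0.902 and 0.457 CPM (2.25 ± 0.55, adjusted p = 0.0154), and not without control mouse 1 (0.0527) or 2 (0.0533). That count was 3 without NR-treated Alport mouse 4 and 2 without mouse 3 or control mouse 3. Interferon-stimulated genes (3 of 20 higher, 1 lower) included *Oasl2* at 0.97 ± 0.18 (0.0046), and the total of 4 was 13 without NR-treated Alport mouse 4, 2 without mouse 1, and 1 without mouse 2 or control mouse 1, 2 or 4. Of 21 cell cycle genes 5 were higher, a count of 13 without NR-treated Alport mouse 4, 11 without mouse 3, 3 without mouse 1 or 2, 2 without control mouse 1 or 4 and 1 without control mouse 2. Of all genes tested 23.0% were called, with 11.5% higher. The share called was close to 23.0% for interferon-stimulated and cell cycle genes and lower for MHC class II and lymphocyte genes. In vehicle-treated Alport mice 11 MHC class II, 14 lymphocyte, 18 interferon-stimulated and 19 cell cycle genes were higher (medians 2.44, 1.85, 1.44 and 1.37), where 45.7% of all genes were called. Between NR-treated and vehicle-treated Alport mice 0, 1, 0 and 0 genes of these 4 lists were called lower and 0 higher. The medians of that comparison were -0.91, -0.90, -0.82 and -0.56, and 0.458% of all genes were called in it.

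Some targets of PPARα stood above the healthy level. Of 21 tested members 7 were higher, 1 lower and 13 not called (median log2FC 0.99), where 11.5% of all genes were called higher, and 3 of the 21 had crossed. Of the same genes, 2 were higher and 11 lower in vehicle-treated Alport mice (median -0.44). *Cyp4a14*, a fatty acid hydroxylase, was at 1655, 1603, 2678 and 4885 CPM in NR-treated Alport mice and at 542, 858, 688 and 633 CPM in controls, and so every Alport mouse exceeded every control (2.0 ± 0.37, adjusted p = 0.0065). In vehicle-treated Alport mice it was below the control level, at 199–485 CPM (-0.98, adjusted p = 0.00981). The related *Cyp4a10* crossed in the same way, at 935, 938, 1193 and 1658 CPM against 401, 766, 599 and 508 CPM (1.06 ± 0.24, 0.0121, after -0.94, 0.0095). The peroxisomal enzyme *Ehhadh* was at 1150, 1151, 1321 and 3018 CPM against 631, 690, 654 and 443 CPM (1.46 ± 0.33, 0.0152, after -0.84, 0.000876). Members of the Cyp4a family are close in sequence, and reads that match several of them may be split between them. Without control mouse 1 the list had 5 called genes.

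*Fabp1*, the liver-type fatty acid-binding protein, did not differ detectably between vehicle-treated Alport mice and controls (-0.05, adjusted p = 0.93) and was among the genes furthest above control here. It was at 43.0, 31.1, 35.5 and 56.8 CPM in NR-treated Alport mice and at 1.29, 2.89, 4.94 and 2.42 CPM in controls (3.85 ± 0.37, adjusted p = 0.000424), with no overlap. Its promoter is shown because it alone, among the 13 PPARα targets with an entry in the RefSeq promoter table (GRCm38.p6), held a match to AGGNCANAGGNCA, the direct repeat to which PPARα binds as a pair with RXR. The search covered both strands from 250 bases before to 50 bases after each start, and 0.381% of 32841 promoters held a match. The 300 bases lie on the plus strand at chr6:71199629-71199928, in which capitals mark the match, read here as its reverse complement.
Fabp1: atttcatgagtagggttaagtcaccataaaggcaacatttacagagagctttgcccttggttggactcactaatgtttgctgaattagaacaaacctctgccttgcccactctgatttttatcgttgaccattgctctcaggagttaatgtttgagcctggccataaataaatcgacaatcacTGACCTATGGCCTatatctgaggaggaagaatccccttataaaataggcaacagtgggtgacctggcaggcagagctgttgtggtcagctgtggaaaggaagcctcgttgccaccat
The match begins 67 bases before the start site. A match of letters is a description of the sequence and does not show binding.

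Of 25 genes of cholesterol synthesis and uptake 6 were higher, 2 lower and 17 not called (median 0.34), and 2 had crossed. Of all genes, 11.5% were called higher and 11.4% lower. In vehicle-treated Alport mice 1 cholesterol gene was higher and 17 lower (median -0.49), where 45.7% of all genes were called. *Insig1*, the sterol sensor that holds back synthesis, was at 52.5, 81.4, 123 and 118 CPM against 38.6, 35.7, 41.6 and 51.4 CPM (1.18 ± 0.26, adjusted p = 0.0133, after -1.06, 0.000347, in vehicle-treated Alport mice). *Sqle*, squalene epoxidase, was at 58.5, 63.9, 109 and 87.4 CPM against 44.6, 35.9, 41.3 and 35.1 CPM (1.03 ± 0.19, 0.00493). For both genes, mice 3 and 4 were higher than mice 1 and 2, and every Alport mouse was above every control. *Cyp51*, a demethylase of the same pathway, was lower at 114, 103, 127 and 98.1 CPM against 279, 185, 212 and 180 CPM (-0.95 ± 0.14, 0.00168). Of 17 members with an entry in the promoter table, 1 held the sterol response letters TCACNCCAC on either strand, as did 1.24% of all promoters, and it was not among those higher.

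Of 31 NRF2 targets 18 were higher, 0 lower and 13 not called (median 0.77), and 5 had crossed. In vehicle-treated Alport mice 2 were higher and 13 lower (median -0.22), where 45.7% of all genes were called. *Nqo1*, the quinone reductase, was at 121, 76.1, 140 and 277 CPM against 33.7, 69.3, 53.0 and 37.4 CPM (1.67 ± 0.42, adjusted p = 0.0242, after -0.71, 0.0372), with the call lost without control mouse 1 (0.0691) or 4 (0.0642). The glutathione transferase *Gsta1* was at 71.1, 40.8, 88.7 and 126 CPM against 2.31, 6.08, 3.33 and 2.15 CPM (4.54 ± 0.46, 0.000688), and the carbonyl reductase *Cbr3* at 57.8, 43.6, 95.3 and 225 CPM against 3.90, 6.42, 6.00 and 4.53 CPM (4.34 ± 0.59, 0.00234). Mouse 2 was the lowest and mouse 4 the highest for each of these 3 genes, and none overlapped with the controls. *Gstm1* (1.37 ± 0.18, 0.00099) and the epoxide hydrolase *Ephx1* (1.04 ± 0.14, 0.000985) were higher with less spread. Gsta and Gstm genes have close paralogs, and reads may be shared among them.

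Some of these genes carry the core of an antioxidant response element, the site at which NRF2 binds with small MAF proteins. The letters TGACNNNGC were sought on both strands, and 12.4% of all promoters held them. Of 26 NRF2 targets with a promoter entry 8 held a match, and of their 33 promoters 9 did. Among these 8, *Gclm*, *Gsta3* and *Txnrd1* were not called higher. Of the 17 NRF2 targets that were higher and have a promoter entry, 5 held a match (*Abcc4*, *G6pdx*, *Pgd*, *Srxn1* and *Ugdh*, named for the match after the values were seen). Windows of 30 bases around a match before a start site are shown, 1 for each of the 3 genes that have one there, in the direction of the gene, with the match in capitals. *Ugdh* lies on the minus strand of chromosome 5 (65435955–65435984), *G6pdx* on the minus strand of chromosome X (74428918–74428947) and *Abcc4* on the minus strand of chromosome 14 (118706225–118706254).
Ugdh: gcggagcccgTGACTTAGCtggagctgatt
G6pdx: aggcgggtcaGCTCAGTCAaagcacacgcc
Abcc4: gccccgagagGCGGGGTCAgggcgggccgg
The match of *Ugdh* reads as the searched letters and those of *G6pdx* and *Abcc4* as their reverse complement. *Ugdh*, which makes the sugar acid used in glucuronidation, was at 143, 108, 120 and 221 CPM against 95.6, 88.0, 86.2 and 78.0 CPM (0.77 ± 0.20, adjusted p = 0.0246). The call of *Ugdh* was lost without any 1 control mouse (adjusted p = 0.0527, 0.0624, 0.0543 and 0.068 without mice 1 to 4), that of *Abcc4* without control mouse 1 (0.0741) or 4 (0.0633), and that of *Srxn1* without NR-treated Alport mouse 3 or any 1 control mouse (0.0591 to 0.0963).

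**Figure D4:**
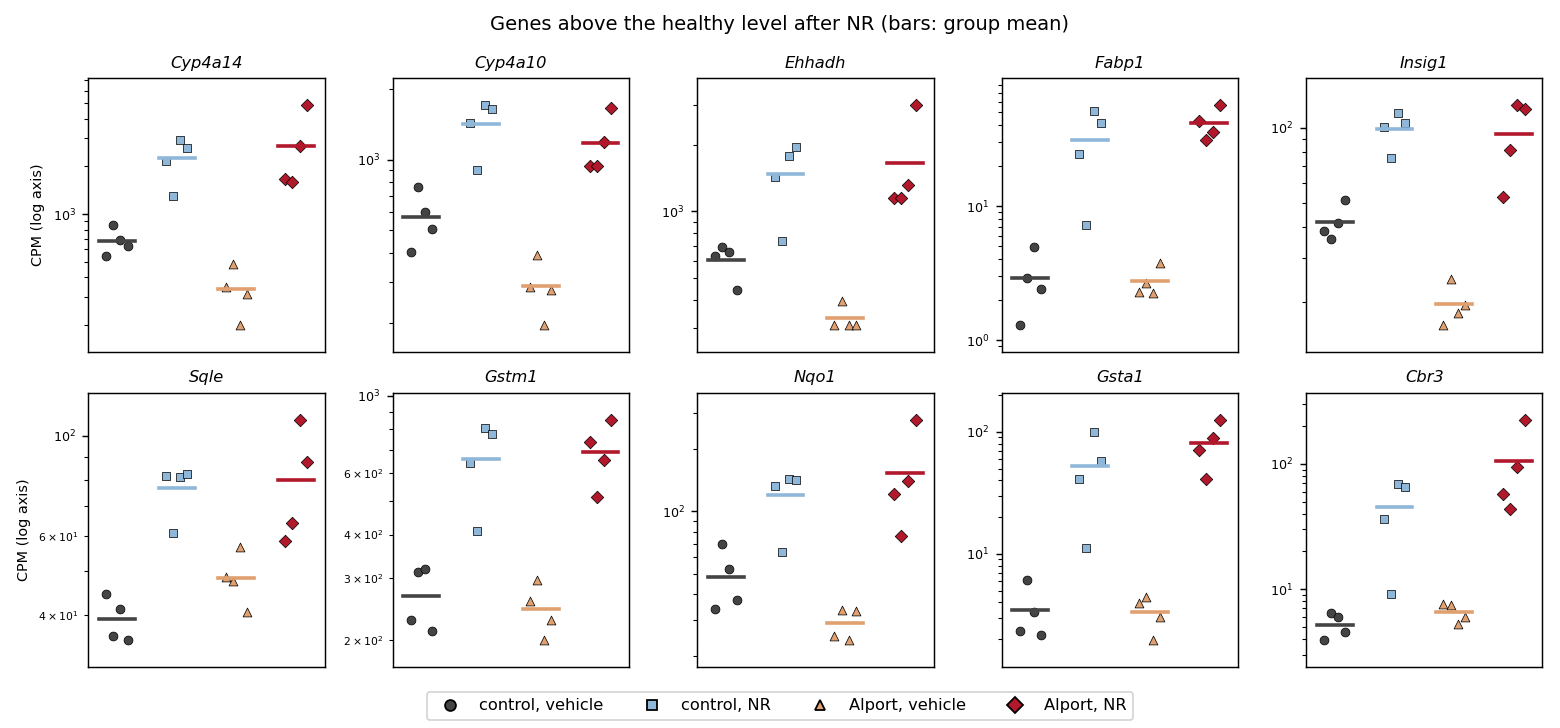
CPM (log axis) of 10 genes in each mouse of the 4 female groups, with bars at the group means. NR-treated Alport mice lie above all vehicle-treated controls for each gene, and the ranges of NR-treated controls and NR-treated Alport mice overlap, with *Fabp1* at 31.1 CPM on average in the former and 41.6 CPM in the latter.

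Members of these lists were also higher in NR-treated controls. Against vehicle-treated controls, NR-treated controls had 9 PPARα targets, 22 cholesterol genes and 16 NRF2 targets higher and 0 of each lower, where 6.39% of all genes tested were called. When NR-treated Alport mice were compared with NR-treated controls, 0 PPARα targets were higher and 4 lower, 0 cholesterol genes were higher and 3 lower, and 4 NRF2 targets were higher and 2 lower (medians -0.05, -0.09 and 0.14), where 27.5% of genes were called. *Cyp4a14* was at 1296–2941 CPM in NR-treated controls, and the log2FC of NR-treated Alport mice against them was 0.30 (adjusted p = 0.619). For *Gsta1* that value was 0.68 (0.466) and for *Sqle* 0.09 (0.76). *Ephx1* was an exception, with NR-treated Alport mice also above NR-treated controls (0.68, adjusted p = 0.00628). In the same comparison 18 of 20 tubule injury genes and 36 matrix genes were higher, and 24 proximal tubule genes were lower and 1 higher.

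All 5 red blood cell genes were also higher in NR-treated than in vehicle-treated controls, and 4 were lower in vehicle-treated Alport mice than in controls. *Hba-a2*, an alpha-globin gene whose reads may be shared with its near-identical copy, was at 240, 382, 159 and 120 CPM in NR-treated Alport mice, 96.7–188 CPM in controls and 344–551 CPM in NR-treated controls. Their part in the other results was not tested.

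Only 2 genes crossed downwards. *Ccl28*, an epithelial chemokine, was at 3.78, 2.63, 2.11 and 2.51 CPM in NR-treated Alport mice, 14.5, 5.52, 4.71 and 12.1 CPM in controls and 12.1–35.3 CPM in vehicle-treated Alport mice (log2FC -1.73 ± 0.38, adjusted p = 0.0102). The amino acid transporter *Slc6a15* was at 14.2, 15.1, 13.8 and 9.51 CPM against 28.3, 22.7, 22.2 and 15.4 CPM (-0.75 ± 0.19, 0.02), and was not called without control mouse 1 (0.0621) or 2 (0.0545). Both sets of ranges were separate.

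The genes furthest below control included transporters and enzymes of the proximal tubule, and several were lower here than in vehicle-treated Alport mice without passing the test of that difference. *Slc22a7*, the organic anion transporter OAT2, was at 17.5, 5.79, 1.19 and 0.15 CPM in NR-treated Alport mice, 229, 160, 169 and 138 CPM in controls and 21.0–112 CPM in vehicle-treated Alport mice. No NR-treated Alport mouse reached the lowest vehicle-treated one, and the log2FC against controls was -4.83 ± 0.97 (adjusted p = 0.0117), with mouse 4 the lowest. *Dio1*, which activates thyroid hormone, was at 11.8, 10.7, 3.30 and 0.861 CPM against 119, 76.2, 52.5 and 92.4 CPM (-3.68 ± 0.69, 0.00893), and 24.4–49.4 CPM in vehicle-treated Alport mice. *Slc22a19*, another organic anion transporter, and *Mfsd2a*, a transporter of lysophospholipids, had the same order of mice, from 23.7 and 3.42 CPM in mouse 1 to 2.92 and 0.524 CPM in mouse 4 (-3.53 ± 0.66, 0.00886, and -3.49 ± 0.53, 0.00291).

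*Kap*, an androgen-regulated protein of the proximal tubule, was at 143, 22.7, 7.01 and 42.8 CPM against 1643, 1001, 239 and 747 CPM (-4.07 ± 1.01, 0.0253), but was not called without NR-treated Alport mouse 2 (0.0699) or 4 (0.07) or control mouse 1 (0.0586) or 2 (0.0536). The water channel *Aqp4* was at 3.55, 2.45, 2.02 and 2.43 CPM against 41.5, 24.4, 82.7 and 25.5 CPM (-4.05 ± 0.47, 0.00101). *Bhmt*, which remethylates homocysteine, was at 4.49–15.0 CPM against 61.2–111 CPM (-3.55 ± 0.41, 0.00101), and *Wfdc16* at 0.786–1.93 CPM against 13.2–24.4 CPM (-3.83 ± 0.29, 1.00e-04). Between NR-treated and vehicle-treated Alport mice *Wfdc16* was called (-1.91, adjusted p = 0.0305), and *Slc22a7* (-3.0, 0.214), *Dio1* (-2.31, 0.163), *Kap* (-2.87, 0.183) and *Aqp4* (-1.73, 0.107) were not. In NR-treated against vehicle-treated controls *Slc22a7* (-0.95, 0.0151) and *Dio1* (-1.49, 0.0305) were lower.

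**Figure D5:**
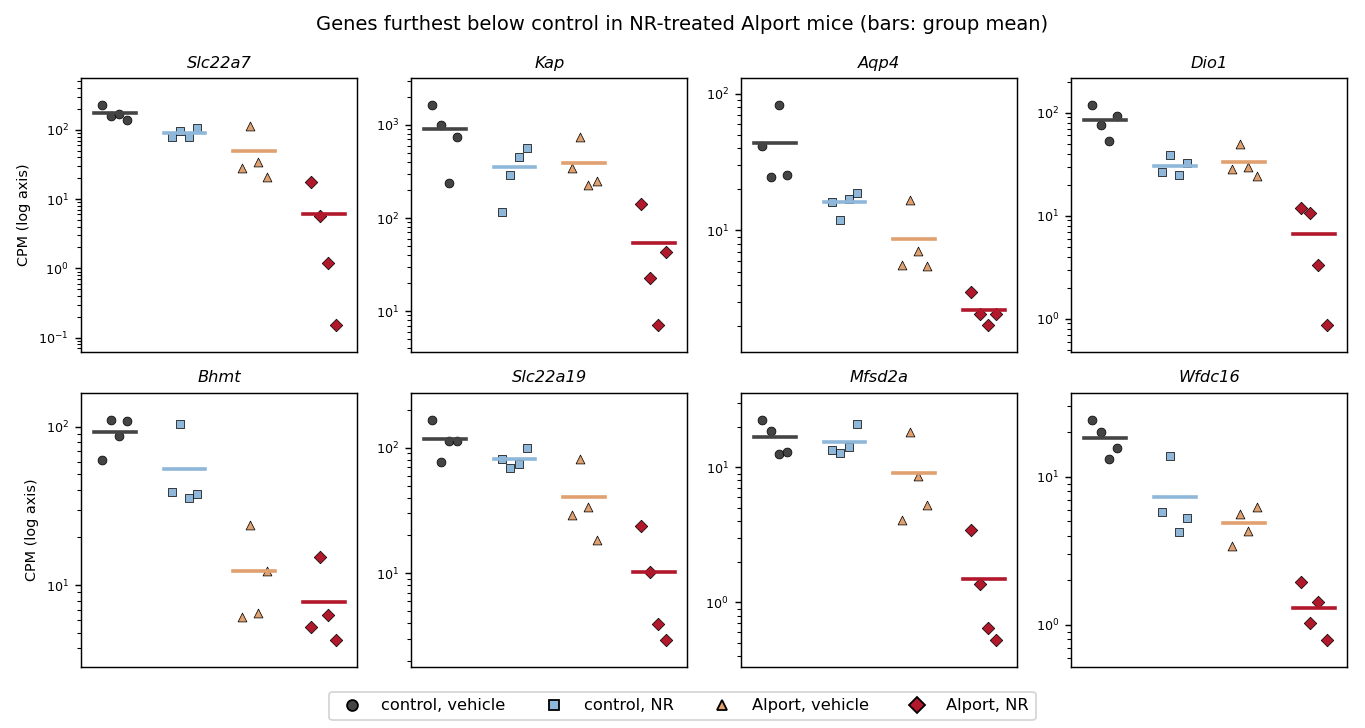
CPM (log axis) of 8 genes chosen as those furthest below control, in each mouse of the 4 female groups, with bars at the group means. In each panel the 4 NR-treated Alport mice lie below all vehicle-treated controls, and for *Slc22a7* they range from 0.15 to 17.5 CPM.

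Of 21 genes of mitochondrial fatty acid oxidation 4 were lower, 1 higher and 16 not called (median -0.11), a share close to the 23.0% of all genes called. All 21 were lower in vehicle-treated Alport mice (median -0.61), where 45.7% of all genes were called. In NR-treated against vehicle-treated controls 13 were higher and 0 lower (median 0.31), where 6.39% of all genes were called. When NR-treated Alport mice were compared with NR-treated controls, 10 were lower and 0 higher (median -0.34), where 13.2% of all genes were called lower. *Acadm*, medium-chain acyl-CoA dehydrogenase, was at 494, 452, 488 and 467 CPM against 916, 738, 837 and 721 CPM (log2FC -0.75 ± 0.10, adjusted p = 0.000718), without overlap. The carnitine transporter *Slc22a5* (-0.66 ± 0.11, 0.00217) and the hydratase *Echs1* (-0.38 ± 0.08, 0.00602) were lower too, as was *Hadhb* (-0.33 ± 0.10, 0.0362), and *Eci1* was higher (0.47 ± 0.10, 0.00688), the last pair named after their values were seen. The call of *Hadhb* was lost without NR-treated Alport mouse 1 or 2 or any 1 control mouse (adjusted p = 0.0713 to 0.128). *Cpt1a*, the gatekeeper of fatty acid entry into mitochondria, was at 406, 338, 446 and 719 CPM against 633, 675, 526 and 548 CPM. Mice 1 to 3 were below every control and mouse 4 above every control, and the gene was not called (-0.31, 95% CI -0.79 to 0.16), but was lower without mouse 4 (-0.55, adjusted p = 0.00603), where 8 genes of the list were called. Of 19 peroxisomal genes 2 were higher, 3 lower and 14 not called (a total of 3 called without control mouse 1), also close to the share of all genes, with the long-chain fatty acid transporter *Slc27a2* at 1677, 1346, 1436 and 1755 CPM against 3551, 3424, 3186 and 2997 CPM (-1.08 ± 0.11, 0.00031). Against NR-treated controls 9 peroxisomal genes were lower and 0 higher in NR-treated Alport mice (median -0.33).

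The same comparison in males, NR-treated Alport against vehicle-treated control mice, called 3186 of 15077 genes (21.1%), and 6 of 15920 genes (0.0377%) differed in log2FC between the sexes in a fit of the 16 mice, 2 more positive (0.0126%) and 4 more negative (0.0251%) in females. *Ugt1a2*, of the UDP-glucuronosyltransferase cluster whose members share exons, was at 709, 1122, 743 and 988 CPM in NR-treated Alport females against 2382, 2063, 2057 and 2308 CPM in female controls. In males it was at 139, 460, 382 and 121 CPM against 20.5, 17, 35.4 and 16.1 CPM, so that it was lower in Alport mice of 1 sex and higher in those of the other (female minus male log2FC -4.93 ± 0.55, adjusted p = 0.00214). *Abcc3*, an export pump for glucuronides, was at 17.1–45.2 CPM against 31.6–77.5 CPM in females and at 12.6–32.0 CPM against 0.983–2.24 CPM in males (-4.62 ± 0.56, 0.00384). *Oat*, ornithine aminotransferase, was lower in females (-0.93 ± 0.08, 0.000166) and at 135–145 CPM against 137–162 CPM in males (difference -0.87 ± 0.13, 0.0139). *Timd2* was at 14.5, 19.7, 21.5 and 12.2 CPM against 6.34, 4.32, 5.10 and 3.38 CPM in females and at 52.2–88.9 CPM against 70.6–97.3 CPM in males (2.11 ± 0.30, 0.0121). *Gbp3*, an interferon-induced GTPase, was at 6.21–15.7 CPM against 17.9–30.7 CPM in females and 10.4–19.9 CPM against 4.19–5.73 CPM in males (-2.43 ± 0.39, 0.0337). The female difference of *Gbp3* alone was not called without NR-treated Alport mouse 2 or 3 or any 1 control mouse (adjusted p = 0.0561 to 0.0973), and that of *Abcc3* (-0.86, 0.114) was called without NR-treated Alport mouse 1 (-1.18, 0.0186). The sixth, *Col19a1*, was below the level set for naming genes. The count of 6 was 10 without NR-treated male Alport mouse 1, 13 without mouse 4 and 10 without male control mouse 3.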

How the data were processed

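Per the labels and the study's methods, poly(A) RNA of kidney cortex was sequenced for 32 mice, 4 per sex, genotype and diet, and processed with BioJupies. The authors deposited raw read counts per gene, which were used here, and a table of log10(CPM + 1) values, which was not used. The labels name the mm10 build. The aligner version and annotation are not given in the sources used here. Each group's columns were matched to mice by their names.

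The 8 mice were fitted with edgeR 4.0.16 (R 4.3.3), with TMM scaling, filterByExpr at a minimum count of 10, robust quasi-likelihood dispersions and Benjamini-Hochberg adjustment at 0.05. SEs were computed as the absolute log2FC over the square root of F. The script was tested on simulated data, where edgeR found 58 of 90 2-fold differences between the groups and 37 of 102 2-fold sex differences. A sex difference that was not called may thus still be present. Side comparisons each used their own 8 mice, and the sex difference was the interaction in a fit of 16 mice. Alternatives used DESeq2 1.42.0, limma 3.58.1, other filters and scaling, other sets of mice, a replicate block and each mouse left out.

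Named genes were the 10 largest rises and falls without overlap (mean CPM at least 5), the 10 largest crossings each way, the 3 smallest p in each of 31 lists, a set of genes of the disease and treatment, and the 5 largest sex differences each way. Tissue markers and genes with a promoter match were named outside that rule, and some genes it names are not reported here. The members and lists were chosen with earlier results of these data known. Labels do not state whether same-numbered mice share a litter. The study's methods state that groups were balanced across litters, without tying mouse numbers to litters.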

Additional observations from a re-analysis of the deposited data

Results flagged for a closer look

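A mouse far from the other 3 of its group, by the gap to its nearest neighbour over the group's range and Dixon's 95% critical value, was found in 11 of 260 sets of values examined, where chance gives about 1 in 20. Among NR-treated Alport females, mouse 4 stood apart for *Ehhadh* (3018 CPM, with 1150–1321 CPM in the others, gap 0.908). Mouse 3 was high for *Ndufs1* (234 CPM, gap 0.882) and *Uqcrc2* (354 CPM, gap 0.889) and low for *Cyr61* (31.5 CPM, gap 0.859). Among vehicle-treated control females, mouse 3 was high for *Timp1* (0.980 CPM, gap 0.913), *Il7r* (0.902 CPM, gap 0.845), *Oasl2* (9.57 CPM, gap 0.863) and the score of liver genes (3.93, gap 0.897). Control mouse 4 was high for the score of NAD consumers (4.22, gap 0.8293) and low for *Nampt* (230 CPM, gap 0.964), and control mouse 1 was high for *Gbp3* (30.7 CPM, gap 0.861).

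The log2FC of NR-treated Alport against vehicle-treated control mice differed between females and males, as female minus male in edgeR's interaction test, for *Timd2* (2.11), *Ugt1a2* (-4.93), *Abcc3* (-4.62), *Gbp3* (-2.43) and *Oat* (-0.87).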

How the results depend on the processing

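With 1 mouse left out at a time, 2227–4788 genes were called, 1088–2598 higher and 1132–2190 lower, of which 1951–3956 were still abnormal and 12–33 had crossed, and the sex difference was called for 4–13 genes. Genes that had crossed numbered 37 with DESeq2 and 8 with all 32 mice in the fit. The sex difference was called for 72 genes with DESeq2, 2 with limma-voom and 35 with all 32 mice. At least 2-fold differences numbered 1116. Same-numbered mice did not deviate together (correlations -0.110, -0.237, -0.147 and -0.091 for numbers 1 to 4), and the numbers were not taken to pair the mice. No correlations of unlike-numbered mice between the groups were computed for reference, so this check cannot show that the mice were unpaired. With the replicate block 2313 genes were called, 1093 of them higher, 2042 were still abnormal, and the sex difference was called for 10 genes. Calls by the other tools and filters numbered 4201 (DESeq2), 3349 (limma-voom), 3464 (DESeq2's size factors) and 3186 (no filter on low counts). The only changes of sign among named genes were in uncalled ones with values near 0, *Col4a5* (-0.0240 to 0.12 with 1 mouse left out, below 0 without NR-treated Alport mouse 1), *Umod* (-0.11 to 0.0393, above 0 without mouse 2) and *Aqp2* (-0.0187 to 0.25, below 0 without mouse 1 or control mouse 1). With 4 mice a group, p-values rest on the spread between these mice, with dispersions moderated across genes, and on no other mice.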
